A study of Homo sapiens with 12 samples.

Results

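The 48 genes described here make up the folding and export machinery of the endoplasmic reticulum (ER) and its stress response, and they were taken from a fixed list of symbols among the 38716 gene symbols of the deposited tables. They fall into 6 classes by role: 17 chaperones and folding enzymes, 4 genes of the unfolded protein response (UPR), 6 genes of ER-associated degradation (ERAD), 10 subunits of the translocon and signal peptidase, 6 vesicle coat genes and 5 cargo and retrieval receptors. The cells were IMR90, widely distributed human fetal lung fibroblasts with a limited lifespan in culture, taken either while dividing (proliferating, Pro) or in replicative senescence (Sen). Senescent cells had reached this state by continued passage, no drug or transgene is named in the labels for either state, and both states were grown in the same medium. From 3 lysates of either state, both a Ribo-seq library of the mRNA stretches shielded by ribosomes and an RNA-seq library of poly(A)-enriched RNA were made. Samples are not assigned to either of the 2 isolates of IMR90 that the labels name, so isolate and state cannot be told apart, and the replicates are described as independent without further detail, so p-values measure the spread between these samples. RNA-seq files of the proliferating cells carry a tag resembling the solvent name DMSO, which no label explains.

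The ER is where proteins destined for the cell surface or the outside are made, folded and checked. Ribosomes thread such chains through the SEC61 channel, signal peptidase cuts off the leading peptide, and chaperones, lectins and disulfide isomerases fold the chain before coat proteins pack it into vesicles. When unfolded chains build up, the sensors ATF6, IRE1 (gene ERN1) and PERK (gene EIF2AK3) switch on the UPR, in which IRE1 splices XBP1 mRNA so that an active transcription factor is made. Chaperones that slip out to the Golgi are caught by KDEL receptors through a signal at the end of the protein and carried back. Fibroblasts secrete large amounts of collagen and other matrix, and senescent cells are known for a secretory phenotype, which makes this machinery of interest in both states.

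For each gene the mRNA level is the sum of its 5′ UTR, coding sequence (CDS) and 3′ UTR reads in RNA-seq, and the ribosome-protected fragments (RPF) are its CDS reads in Ribo-seq. Levels are given as CPM, the edgeR unit of reads relative to the TMM-scaled size of their library, and fold changes as log2 ratios of Sen to Pro with a standard error (SE). A gene was called higher or lower when the adjusted p of edgeR's quasi-likelihood test, corrected over all genes tested, was under 0.15, the false discovery rate of the study's methods. Reads in these mRNA regions numbered 7902427 to 14144455 per RNA-seq library. Ribo-seq was far less even, with 54421 CDS reads in Pro 1 and 54708 in Sen 2 against 583798 to 1718521 in the other libraries, and Pro 1 and Sen 2 are called shallow in what follows. A floor of 3 reads corresponded to 52.1 and 52.7 CPM in those libraries and to at most 5.83 CPM in the other Ribo-seq libraries, and between 15.0% and 88.8% of a Ribo-seq library's assigned reads fell in CDS. All 10 fibroblast markers were detected, with a summed mRNA level of 30828 to 34740 CPM in Pro and 28429 to 32060 CPM in Sen. Epithelial and endothelial lists summed to at most 1.71 CPM in any library. The blood list ran from 19.0 to 21.0 CPM in Pro and from 31.2 to 34.4 CPM in Sen, nearly all of it CD68, while PTPRC averaged 0.0880 and 0.0793 CPM, and its part in the results was not tested. Senescence markers moved with the labels, CDKN1A with a log2 fold change in mRNA of 1.60 and MKI67 with -2.30. Exons of 9 members overlap a coding gene on the other strand (HSP90B1, PDIA3, PDIA6, TXNDC5, SYVN1, DERL1, SEC61A1, SPCS1 and KDELR3), and 8 have named pseudogenes (HSPA5, PDIA3, XBP1, SEC61G, SSR1, SSR4, SPCS2 and SAR1A), so some of their reads may belong elsewhere. In bulk libraries such as these, fewer cells of a type and less RNA per cell cannot be told apart.

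Promoters and the ends of coding sequences were searched for features linked to the UPR and to retrieval. The ER stress element (ERSE), through which ATF6 and XBP1 act together with NF-Y, was searched on both strands as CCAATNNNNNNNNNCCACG, and its shorter variant ERSE-II as ATTGGNCCACG. The windows were RefSeq promoters of GRCh38.p14, from 250 bases before to 50 after each start site. Of the members, 43 had a promoter in the table, and PDIA3, DERL1, SPCS1, SEC24D and KDELR2 had no entry. ERSE was found in 7 of the 43, or 16.3%, against 25 of the 27305 symbols with a promoter, or 0.0916%. ERSE-II was found in 3 of the 43, or 6.98%, against 19 of the symbols, or 0.0696%. The members were listed as genes of the ER and the UPR, so these shares are no test of a link. The sites below are shown because they mark members whose response to ER stress is best known, and 6 of the 7 genes with ERSE belong to the chaperone class, XBP1 being the exception. Capitals mark the fixed letters of the motif, each site is read in the direction of the motif, and strand is that of the genome.
HSPA5 (chr9:125241391-125241409, minus strand): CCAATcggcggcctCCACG
HSP90B1 (chr12:103930216-103930234, plus strand): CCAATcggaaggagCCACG
HSP90B1 (chr12:103930321-103930339, minus strand): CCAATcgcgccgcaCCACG
CALR (chr19:12938384-12938402, minus strand): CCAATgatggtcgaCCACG
CANX (chr5:179698778-179698796, plus strand): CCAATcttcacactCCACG
PDIA6 (chr2:10812853-10812871, minus strand): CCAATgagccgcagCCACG
CRELD2 (chr22:49918554-49918572, minus strand): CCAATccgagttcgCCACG
XBP1 (chr22:28800603-28800621, minus strand): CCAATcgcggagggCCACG
HYOU1 (chr11:119057274-119057284, plus strand): ATTGGaCCACG
HYOU1 (chr11:119057380-119057390, plus strand): ATTGGaCCACG
HERPUD1 (chr16:56932025-56932035, plus strand): ATTGGgCCACG
SDF2L1 (chr22:21642114-21642124, minus strand): ATTGGtCCACG
The first base of these sites, counted along the gene, lay between position -225 (CALR) and position -52 (XBP1) relative to the start site.

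The last codons of the coding sequence tell which folding proteins carry the retrieval signal that KDEL receptors bind. They were read from GENCODE v44 transcripts lifted to GRCh37. A KDEL-type ending was found in 8 of the 17 chaperones and folding enzymes, a related ending in 4 and neither in 5. The related endings belong to PDIA3, MANF, CRELD2 and HYOU1, and CANX, ERO1A, DNAJB9, DNAJB11 and DNAJC3 have neither. The lines below show endings of each kind, with the last 4 codons in capitals and the stop codon in lower case, read along the coding strand.
HSPA5 (chr9:127998871-127998885, minus strand, KDEL-type): AAAGATGAGTTGtag
HSP90B1 (chr12:104341426-104341440, plus strand, KDEL-type): AAAGATGAATTGtaa
CALR (chr19:13054713-13054727, plus strand, KDEL-type): AAGGACGAGCTGtag
HYOU1 (chr11:118916305-118916319, minus strand, related): AACGACGAACTAtaa
CRELD2 (chr22:50320941-50320955, plus strand, related): CGCGAAGACCTGtaa
ERO1A (chr14:53110288-53110302, minus strand, neither): CAGAATATTCATtaa
DNAJB9 (chr7:108213783-108213797, plus strand, neither): TGTTCAGGACAGtag
HSPA5, HSP90B1 and CALR use different codons for a KDEL-type ending, and all of them have ERSE in the promoter.

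More members were called higher than lower in senescent cells in both layers, a balance that in RPF did not hold among the best covered members when they were scaled and tested on their own. In mRNA, 29 of 48 members were higher, 1 was lower and 18 did not pass the test, where 36.6% of the 12787 genes tested were higher and 37% lower. The median log2 fold change of the members was 0.22, beside -0.0058 over all genes tested. In RPF, 22 of 47 members tested were higher, 1 was lower and 24 did not pass, where 27.5% of 7521 genes were higher and 26.9% lower, and the medians were 0.29 for the members and -0.0033 for all genes. Calls upward thus made up a larger share of the members than of all genes tested, and calls downward a smaller one. With libraries scaled to their totals, which moves the median of all genes to -0.11 in mRNA and -0.14 in RPF, 23 members were higher and 8 lower in mRNA, and 15 higher and 6 lower in RPF. Without Pro 1 and Sen 2 in both library types the counts were 29 higher and 1 lower in mRNA and 27 higher and 2 lower in RPF. With at least 10 counts in every Ribo-seq library, 20 members and 828 genes were left, and 4 members were called higher (SEC61A1, SAR1A, KDELR1 and KDELR2) and 4 lower (HSPA5, SEC23A, SEC24D and COPA). In the fit of all genes, 5 of these 20 members were higher and none lower. Scaling on the 828 genes alone moved their median from 0.12 to -0.017 and that of the 20 members from 0.19 to 0.063. Of the 23 RPF calls among members, 5 held under all alternatives tried, 18 were lost under DESeq2 and 10 with a replicate block, whereas 24 of the 30 mRNA calls held throughout. All 3 Sen libraries lay above all 3 Pro libraries for 29 members in mRNA and below them for 2, where 67.8% of all genes tested were separated one way or the other. In RPF the groups were separated upward for 12 members and downward for 1, where 32.5% of genes were separated. XBP1 was the member called lower in mRNA and SEC61B the one called lower in RPF.

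**Figure D1:**
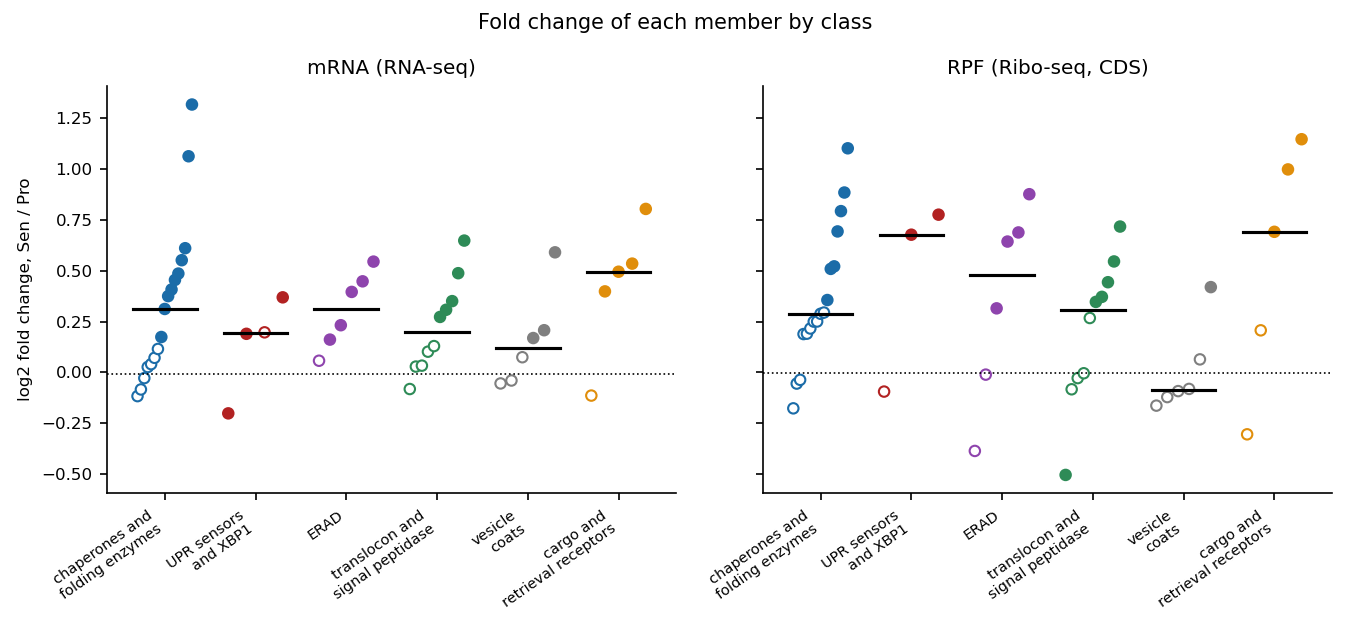
Log2 fold change (Sen / Pro, vertical axis) of each member by class, for mRNA on the left and RPF on the right. Filled points passed the test, open points did not, the bar is the class median and the dotted line the median of all genes tested. The coats sit lowest in RPF, with a median of -0.087, and the cargo and retrieval receptors highest, with 0.69.

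The classes named for contrast were chaperones, translocon with signal peptidase, and vesicle coats. In mRNA, 10 of 17 chaperones and folding enzymes, 5 of 10 translocon and signal peptidase genes and 3 of 6 coat genes were higher, and none was lower. Their median log2 fold changes in mRNA were 0.31, 0.20 and 0.12. In RPF, 7 of 17, 5 of 10 and 1 of 6 were higher, with medians of 0.29, 0.31 and -0.087. Among all genes tested, 36.6% were higher in mRNA and 27.5% in RPF. The chaperone class thus held about the same median in both layers, while 4 of the 6 coat genes had RPF fold changes below 0. None of these 4 passed the test, and 3743 of all 7521 genes tested had RPF fold changes above 0. Summed over the class, chaperones made 6301 ± 147 CPM of mRNA in Pro and 7104 ± 305 CPM in Sen (mean ± SD, n = 3), translocon and signal peptidase 2367 ± 41.2 and 2967 ± 141 CPM, and coats 1425 ± 66.8 and 1584 ± 34.5 CPM. In these 3 sums every Sen library lay above every Pro library. The RPF sums overlapped between the states in all 3 classes, with 2638 ± 545 CPM in Pro and 2669.8 ± 392 CPM in Sen for the coats. No difference between classes was tested.

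Among the 47 members tested in both layers, 18 were higher in both, 11 were higher in mRNA only and 3 in RPF only (HYOU1, EDEM1 and SSR1). Neither layer passed for 13, among them HSPA5, CALR, PDIA4, PDIA6 and TXNDC5, which are abundant folding proteins, and SEC23A, SEC24D and COPA of the coats. SEC61B was lower in RPF only. XBP1 was lower in mRNA and higher in RPF. ERN1, with at most 26 RPF reads in a library, had too few to be tested.

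**Figure D2:**
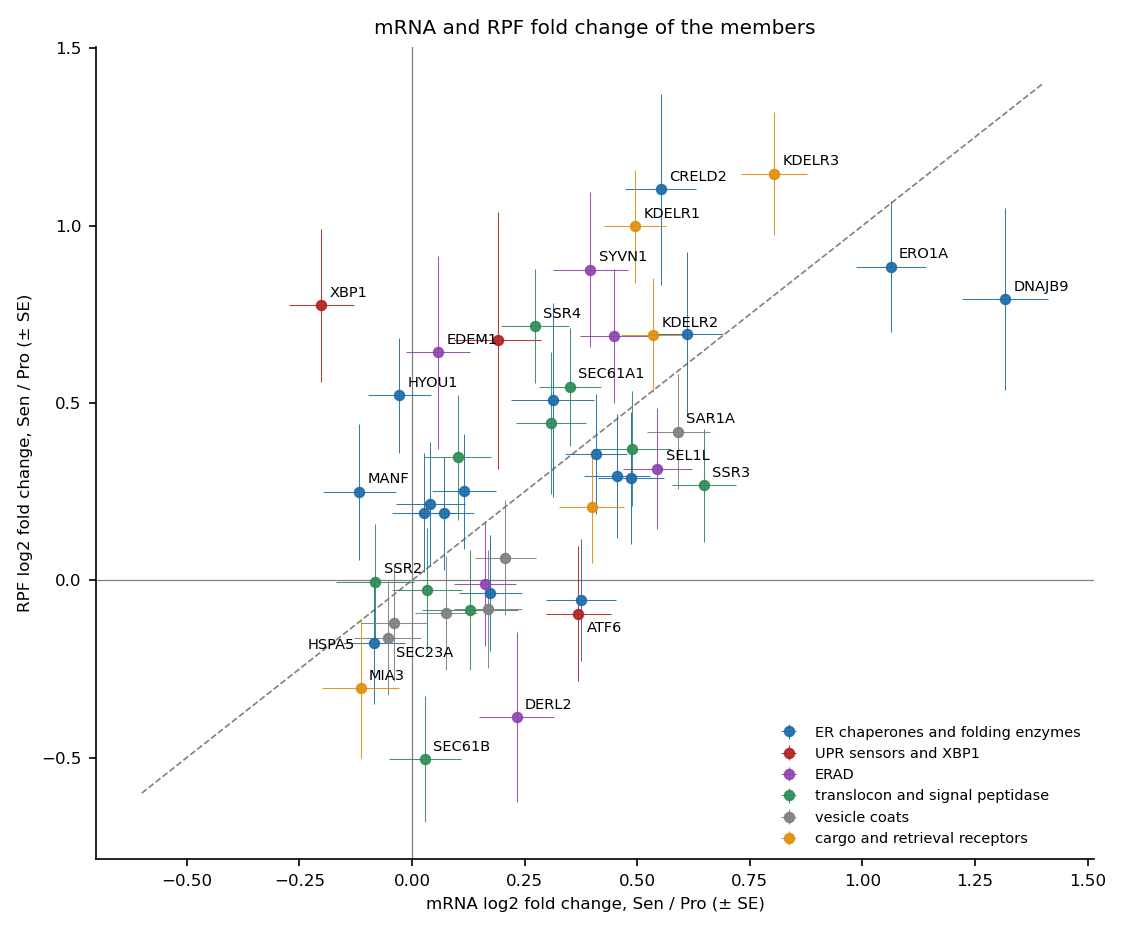
mRNA log2 fold change (horizontal axis) against RPF log2 fold change (vertical axis) of the 47 members tested in both layers, with SE bars and 1 color per class; the dashed line marks equal change. KDELR3, KDELR1 and CRELD2 lie highest, ERO1A and DNAJB9 farthest to the right, and XBP1 alone combines a called fall in mRNA with a called rise in RPF.

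Among the chaperones, the strongest mRNA gains were in DNAJB9 and ERO1A rather than in the abundant chaperones. DNAJB9, a J-domain co-chaperone of the Hsp70 chaperone BiP, gave 17.1, 18.0 and 21.3 CPM of mRNA in Pro 1, 2 and 3 and 46.7, 49.4 and 44.8 CPM in Sen 1, 2 and 3. Every Sen library stood well above every Pro library, and the log2 fold change was 1.32 ± 0.096 (SE; edgeR adjusted p = 7.27e-11). ERO1A, the oxidase that recharges disulfide isomerases, went from 66.2 ± 4.97 CPM in Pro to 138 ± 8.22 CPM in Sen (mean ± SD, n = 3), a log2 fold change of 1.06 ± 0.078 (edgeR adjusted p = 7.92e-11), again without overlap. PDIA5, CRELD2, DNAJC3, DNAJB11, CANX, HSP90B1, SDF2L1 and PDIA3 were the other members of the class called higher in mRNA, with log2 fold changes between 0.17 (PDIA3) and 0.61 (PDIA5). 

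HSPA5, which encodes BiP, the central chaperone of the ER and the usual gauge of the UPR, was not called in either layer. Its mRNA measured 959.5, 979 and 1000.4 CPM in Pro and 894, 942 and 937 CPM in Sen. The Sen libraries all lay just under the Pro libraries, but the log2 fold change was only -0.084 ± 0.069 (edgeR adjusted p = 0.297). In RPF it measured 1770.0, 2242 and 2370.4 CPM in Pro and 1872, 1758 and 2088 CPM in Sen, and the states overlapped, with a log2 fold change of -0.18 ± 0.17 (edgeR adjusted p = 0.425). It was called lower in RPF on library totals, with at least 10 counts in every library, without Pro replicate 1 and without both shallow libraries. MANF, a small protein released under ER stress, had the lowest mRNA fold change of the class, -0.12 ± 0.080, with 87.3, 84.3 and 72.2 CPM in Pro and 76.9, 77.0 and 70.6 CPM in Sen. Its libraries overlapped, as they did for CALR, PDIA6, HYOU1 and TXNDC5, the other members of the class whose mRNA did not pass besides HSPA5 and PDIA4.

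In RPF the class gave 7 calls, in CRELD2, ERO1A, DNAJB9, PDIA5, HYOU1, SDF2L1 and CANX. CRELD2, which helps disulfide exchange and is released under ER stress, had the highest fold change, 1.10 ± 0.27 (edgeR adjusted p = 5.80e-04), and its 3 libraries with more than 20 reads in all stood at 26.8 CPM in Pro 3 and at 68.3 and 56.4 CPM in Sen 1 and Sen 3. Pro 2 gave 28.2 CPM from 19 reads and Sen 2 52.7 CPM from 3 reads, but the shallow Pro 1 gave 104 CPM from 6 reads and lay above them all. The groups therefore overlapped, and the plain means, 53.0 ± 44.2 and 59.2 ± 8.16 CPM, differed far less than the fitted fold change, in which deeper libraries weigh more. ERO1A and PDIA5 also overlapped, while CANX, HYOU1 and SDF2L1 did not overlap. DNAJB9 had no read in Sen 2 and 4 reads in Pro 1, and its RPF of 69.4, 35.6 and 37.0 CPM in Pro and 66.3, 0 and 71.9 CPM in Sen gave a log2 fold change of 0.79 ± 0.26 (edgeR adjusted p = 0.00915) that rests on the 4 deeper libraries. All 7 of these RPF calls were lost under DESeq2. For ERO1A that was the one loss, CRELD2 and DNAJB9 also lost theirs with a replicate block, and HYOU1 without Pro replicate 2. The calls of SDF2L1 and CANX were the least stable, lost under 9 of 13 and 8 of 14 alternatives despite separate libraries, and that of PDIA5 under 4 of 13.

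The retrieval receptors were higher in every senescent library. KDELR1, KDELR2 and KDELR3 were called higher in both layers, no Sen library overlapped a Pro library in either layer, and each RPF call held in all alternatives tried for it. KDELR3 mRNA gave 134, 130.4 and 128 CPM in Pro and 231, 243 and 209.7 CPM in Sen (log2 fold change 0.80 ± 0.073, edgeR adjusted p = 2.78e-09). Its RPF gave 104, 87.6 and 109.7 CPM in Pro and 209, 211 and 253 CPM in Sen, a log2 fold change of 1.15 ± 0.17 (edgeR adjusted p = 8.97e-08). KDELR3 footprints thus stood higher in every Sen library. The shallow Pro 1 and Sen 2 held only 6 and 12 of these reads, too few to show a rise on their own. Pro 2 and Pro 3 held 59 and 184 reads, and Sen 1 and Sen 3 held 312 and 130. KDELR1 mRNA gave 249, 232 and 233 CPM in Pro and 335, 342 and 328 CPM in Sen (log2 fold change 0.50 ± 0.069, edgeR adjusted p = 1.61e-06), and its RPF 243, 270.1 and 286 CPM and 537, 563 and 568 CPM (log2 fold change 0.998 ± 0.16, edgeR adjusted p = 2.88e-07). KDELR2, the receptor with the highest mRNA level per kb of CDS of the 3, rose from 459 ± 14.2 to 666 ± 33.3 CPM in mRNA and from 352 ± 65.4 to 596 ± 71.5 CPM in RPF (mean ± SD, n = 3), log2 fold changes of 0.54 and 0.69. The exons of KDELR3 overlap DDX17 on the other strand and those of KDELR2 overlap DAGLB on the same strand, and the rule for such reads is not given in the sources used here.

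**Figure D3:**
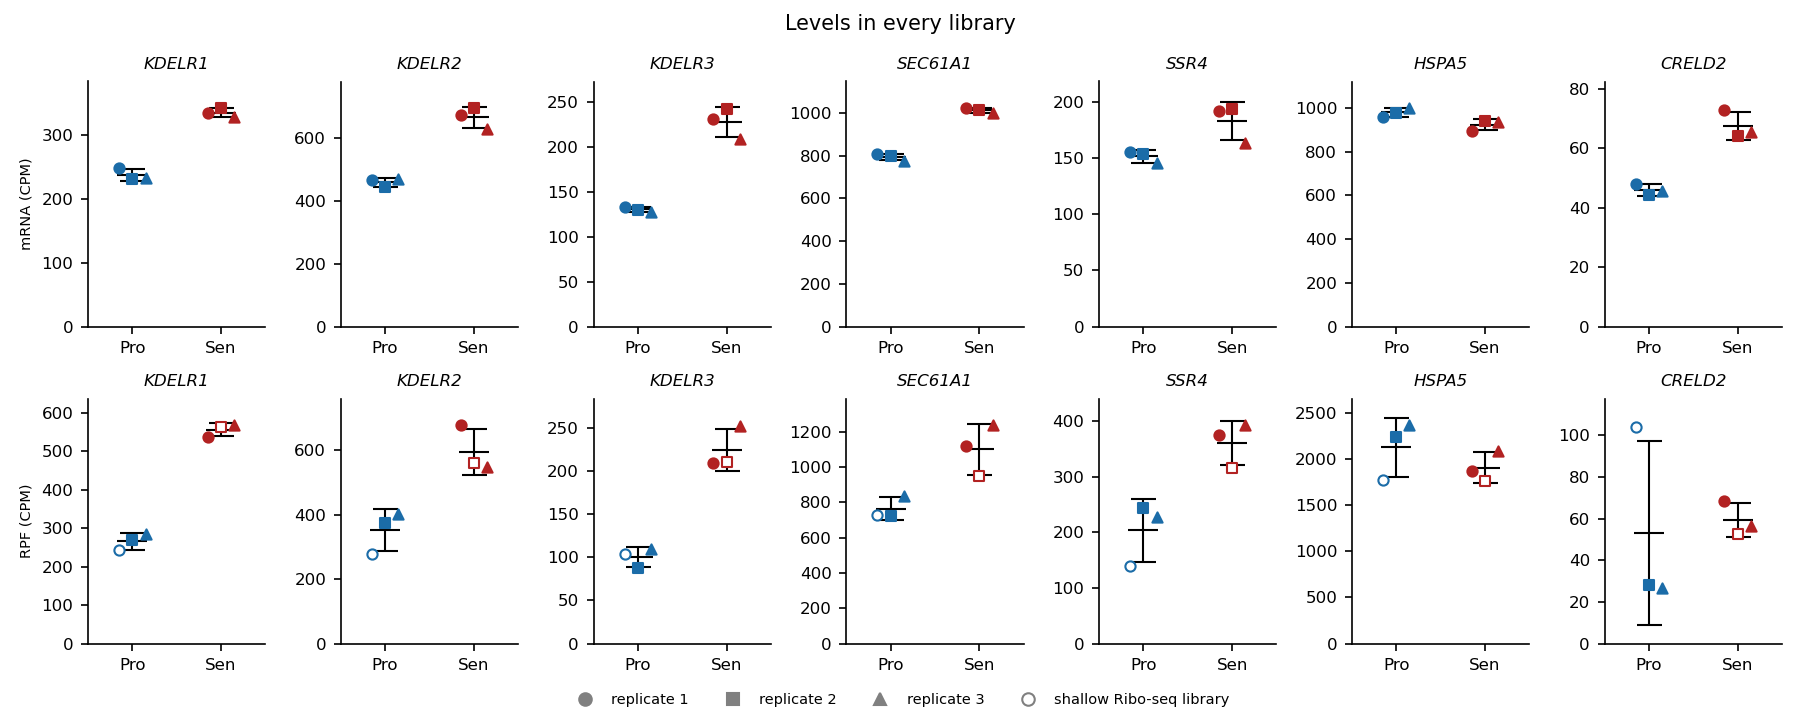
mRNA (top) and RPF (bottom) in CPM in every library for KDELR1, KDELR2, KDELR3, SEC61A1, SSR4, HSPA5 and CRELD2, with mean and SD of 3 libraries; open symbols are the shallow Ribo-seq libraries. The Sen libraries lie above the Pro libraries in both layers for the first 5 genes, while HSPA5 does not rise and CRELD2 RPF is split by Pro 1.

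Folding proteins among the members that carry a retrieval signal can be set beside these receptors. Of the 12 folding proteins with a KDEL-type or related ending, 5 were higher in mRNA and 4 in RPF, with medians of 0.094 and 0.23. The 5 without such an ending were all higher in mRNA and 3 of them in RPF, with medians of 0.49 and 0.36. Over all genes tested the shares were 36.6% in mRNA and 27.5% in RPF, and the RPF calls of both groups were lost under DESeq2. Summed over the 12 clients, mRNA was 5501, 5263 and 5287 CPM in Pro and 5779, 6041 and 5464 CPM in Sen. The states overlapped in that sum. The 3 receptors together gave 849.7, 805 and 828 CPM in Pro and 1238, 1280.3 and 1167 CPM in Sen, without overlap. Per 100 CPM of client mRNA there were 15.4, 15.3 and 15.7 CPM of receptor mRNA in Pro and 21.4, 21.2 and 21.4 in Sen, a ratio that does not depend on how libraries were scaled. In RPF the same ratio was 9.86, 8.71 and 9.20 in Pro and 16.1, 17.3 and 16.1 in Sen. In both layers the spread within a state was small beside the gap between the states, including the 2 shallow libraries. This split was made after the values were seen and was given no test.

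The UPR genes did not move as a block. ATF6, a sensor that is cut in the Golgi to release a transcription factor, was higher in mRNA, with 65.9, 64.9 and 69.6 CPM in Pro and 84.9, 85.9 and 88.1 CPM in Sen (log2 fold change 0.37 ± 0.072, edgeR adjusted p = 1.13e-04) and no overlap. Its RPF, 69.4, 92.0 and 106 CPM in Pro and 97.8, 70.3 and 87.5 CPM in Sen, overlapped and gave -0.094 ± 0.19. EIF2AK3, the kinase PERK that slows initiation under stress, passed in both layers with fold changes of 0.19 ± 0.097 and 0.68 ± 0.36, although the libraries overlapped in both and no RPF read was found in Pro 1 or Sen 2. Either of its calls was lost under several alternatives. ERN1 mRNA did not pass (0.20 ± 0.13, edgeR adjusted p = 0.192).

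XBP1, the transcription factor made after IRE1 splicing, was the member with opposite calls. Its mRNA was 146, 151 and 136 CPM in Pro and 119, 130.4 and 126 CPM in Sen, lower in every Sen library (log2 fold change -0.20 ± 0.072, edgeR adjusted p = 0.0175). Its RPF was 312, 78.7 and 82.3 CPM in Pro and 124, 87.9 and 219.7 CPM in Sen, from 18, 53 and 138 reads and 185, 5 and 113 reads, with a log2 fold change of 0.78 ± 0.22 (edgeR adjusted p = 0.00244). The Sen libraries lay above Pro 2 and Pro 3, but the shallow Pro 1 lay above all of them, so the groups overlapped and the plain mean was lower in Sen. Without Pro replicate 3 the fold change was 0.0058, and the call was lost there and under DESeq2. Reads are counted per gene and region, not per transcript, so spliced and unspliced XBP1 mRNA cannot be told apart. Which form defines its CDS region is not given in the sources used here. No footprint was assigned to its 5′ UTR in any library. A fold change in RPF opposite to that in mRNA by at least 0.6 was found for XBP1 and DERL2, 2 of the 47 members tested, where 5.91% of 7473 genes met that rule.

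Of 6 ERAD genes, 5 were called higher in mRNA, with EDEM1 the exception, and the median was 0.31. Over all genes tested, 36.6% were higher in mRNA. SEL1L and SYVN1 form the core of the ubiquitin ligase complex that pulls misfolded proteins out of the ER. SEL1L mRNA measured 126, 127 and 146 CPM in Pro and 194, 182 and 206 CPM in Sen, without overlap (log2 fold change 0.55 ± 0.077, edgeR adjusted p = 1.98e-06). SYVN1 mRNA measured 40.2 ± 3.22 CPM in Pro and 53.1 ± 2.39 CPM in Sen (mean ± SD, n = 3; log2 fold change 0.40 ± 0.083). In RPF, SYVN1 had the highest value of the class, 0.88 ± 0.22 (edgeR adjusted p = 6.97e-04), with 69.4, 37.1 and 57.2 CPM in Pro and 92.5, 35.2 and 105 CPM in Sen. Sen 1 and Sen 3 lay above every Pro library, and Sen 2, with 2 reads, lay below, and the call was lost under DESeq2. SEL1L was called higher in RPF at 0.32 ± 0.17 (edgeR adjusted p = 0.130), but the call was lost under 7 of 13 alternatives, and leaving out Sen replicate 1 turned the value to -0.028. EDEM1, which hands misfolded glycoproteins to degradation, had no RPF read in either shallow library and gave 102, 94.5 and 95.7 CPM of mRNA in Pro and 99.2, 99.9 and 104 CPM in Sen, which overlapped, against an RPF fold change of 0.64 ± 0.27 (edgeR adjusted p = 0.0491). That RPF call was lost under DESeq2, with a replicate block, without Pro replicate 3 and without Sen replicate 1. DERL1 and DERL2, paralogs of the retrotranslocation machinery, were both higher in mRNA (0.45 and 0.23), a call that DERL2 lost on library totals. Their RPF fold changes were 0.69 ± 0.19 and -0.39 ± 0.24, of which the first passed the test but not under DESeq2. DERL2 RPF was 34.7, 62.3 and 62.6 CPM in Pro and 46.2, 17.6 and 52.5 CPM in Sen, from 1 to 105 reads, and the libraries overlapped. HERPUD1, a scaffold of the ligase complex, was higher in mRNA by 0.16 ± 0.069, a call lost on library totals and without Pro replicate 2, and gave -0.011 ± 0.17 in RPF.

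At the translocon, SEC61A1, the pore-forming subunit, was higher in both layers. Its mRNA was 806, 797 and 776 CPM in Pro and 1023, 1011 and 999 CPM in Sen (log2 fold change 0.35 ± 0.069, edgeR adjusted p = 1.20e-04), and its RPF 729, 726 and 838 CPM and 1117, 949 and 1238 CPM (log2 fold change 0.55 ± 0.17, edgeR adjusted p = 0.00558). The states did not overlap in either layer, and the RPF call held in all alternatives tried for it. The small subunits SEC61B and SEC61G were not called higher in either layer. SEC61B mRNA overlapped between the states, 100.3 ± 6.71 CPM in Pro and 102 ± 9.85 CPM in Sen, while its RPF fell from 156, 187 and 177 CPM to 151, 87.9 and 87.5 CPM, with every Sen library below every Pro library (log2 fold change -0.50 ± 0.18, edgeR adjusted p = 0.0175). These values came from 9, 126 and 297 reads in Pro and 226, 5 and 45 reads in Sen. The gap between Sen 1 and the shallow Pro 1 was smaller than 1 read in Pro 1, which is 17.4 CPM. The RPF call of SEC61B was lost under DESeq2 and without Sen replicate 3. For SEC61G no test passed, with fold changes of 0.13 ± 0.11 and -0.083 ± 0.17.

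The TRAP complex, which sits beside the channel and helps some chains to enter, is encoded by SSR1 to SSR4, and its subunits also differed. SSR3 had the highest mRNA gain of the class, with 461, 429.7 and 451 CPM in Pro and 687, 730.1 and 685 CPM in Sen (log2 fold change 0.65 ± 0.070, edgeR adjusted p = 4.21e-08), and SSR2 the lowest value, with 285, 264 and 234 CPM in Pro and 252, 273 and 215 CPM in Sen, which overlapped (-0.082 ± 0.087). SSR3 RPF was above Pro in every Sen library but at 0.27 ± 0.16 did not pass (edgeR adjusted p = 0.170). SSR4 was the reverse, with a smaller mRNA gain and the highest RPF gain of the class. Its mRNA measured 155, 154 and 145 CPM in Pro and 192, 194 and 163 CPM in Sen (log2 fold change 0.27 ± 0.076, edgeR adjusted p = 0.00340), and its RPF 139, 245 and 228 CPM and 374, 316 and 393 CPM (log2 fold change 0.72 ± 0.16, edgeR adjusted p = 1.98e-04). No SSR4 library overlapped in either layer, and the RPF call held in all alternatives tried for it. Among the signal peptidase subunits, SPCS1 and SPCS3 were higher in both layers, SPCS3 without overlap, whereas SPCS2 gave 0.033 ± 0.079 in mRNA and -0.028 ± 0.17 in RPF and did not pass. The RPF calls were lost under 5 of 13 alternatives for SPCS1 and 7 of 13 for SPCS3, as under 7 of 13 for SSR1.

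The coats were the class with the fewest changes in RPF. SAR1A, the small GTPase that starts COPII budding, was the one coat gene called higher in both layers. It measured 171, 176 and 180.0 CPM of mRNA in Pro and 255, 280.2 and 257 CPM in Sen, without overlap (log2 fold change 0.59 ± 0.070, edgeR adjusted p = 1.70e-07), and 312, 264 and 247 CPM of RPF in Pro and 343, 229 and 379 CPM in Sen. The RPF libraries overlapped, since the shallow Sen 2 lay below every Pro library while Sen 1 and Sen 3 lay above them, and the fold change was 0.42 ± 0.16 (edgeR adjusted p = 0.0304). This RPF call was lost under 5 of 14 alternatives, namely DESeq2, a replicate block and leaving out Pro replicate 2, Pro replicate 3 or Sen replicate 3. SEC31A of the outer COPII coat and COPB1 of COPI were higher in mRNA alone, by 0.21 ± 0.067 and 0.17 ± 0.076. Either call was lost on library totals, and that of COPB1, whose libraries overlapped, also without Pro replicate 1, without Sen replicate 2 and without the shallow libraries. SEC23A, of the inner COPII coat, had the lowest value of the class in both layers, with 223, 218 and 257 CPM of mRNA in Pro and 219.6, 224 and 229 CPM in Sen (-0.054 ± 0.074) and 347, 478 and 512 CPM of RPF in Pro and 433, 299 and 457 CPM in Sen (-0.16 ± 0.16). Both comparisons overlapped and neither passed, nor did SEC24D or COPA in either layer. In RPF, SEC23A and COPA were called lower on library totals and without Pro replicate 1, and all 3 with at least 10 counts in every library. These 6 genes had at least 10 RPF reads in every library. Counts in the shallow libraries were still small, the lowest being 11 reads for SEC24D in Pro 1, with 13 for SAR1A in Sen 2. Small changes in RPF could thus be missed.

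Among the cargo receptors, LMAN1, which ships glycoproteins such as clotting factors, was higher in mRNA (0.40 ± 0.073, edgeR adjusted p = 5.61e-05) and gave 0.21 ± 0.16 in RPF, which did not pass. MIA3, also called TANGO1, which loads bulky procollagen into COPII carriers, had the lowest values of its class. Its mRNA was 47.5, 45.0 and 55.1 CPM in Pro and 46.2, 44.2 and 46.2 CPM in Sen, and its RPF 52.1, 105 and 112 CPM and 83.1, 35.2 and 101 CPM. The libraries overlapped in both, and the fold changes of -0.11 ± 0.086 and -0.30 ± 0.20 did not pass (edgeR adjusted p = 0.2505 and 0.209).

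Translational efficiency (TE), the RPF of a lysate relative to its mRNA, was called changed for few members. Of 47 tested, 4 were higher (HYOU1, XBP1, SSR4 and KDELR1), 1 was lower (SEC61B) and 42 did not pass, where 6.32% of 7473 genes were higher and 3.73% lower. The median TE change of the members was 0.024, beside 0.026 over all genes. Lysate values separated without overlap upward for 4 members and downward for 5, where 16.2% of genes were separated. HYOU1, which reloads BiP with ATP, gave log2 TE values of -0.15, 0.19 and 0.55 in Pro and 0.91, 0.86 and 0.87 in Sen. Every Sen lysate lay above every Pro lysate, and the TE change was 0.56 ± 0.17 (edgeR adjusted p = 0.0452). Its mRNA did not pass (183, 187 and 186 CPM in Pro, 194, 169 and 183 CPM in Sen), while its RPF of 156, 214 and 272 CPM in Pro and 364, 299 and 332 CPM in Sen was higher without overlap (log2 fold change 0.52 ± 0.16, edgeR adjusted p = 0.00682). KDELR1 gave 0.017, 0.22 and 0.30 in Pro and 0.68, 0.74 and 0.79 in Sen, a change of 0.53 ± 0.16 (edgeR adjusted p = 0.0465). In this fit its footprints rose beyond its mRNA. The TE call of KDELR1 was lost under 5 of 15 alternatives, with at least 1 read and without Pro replicate 2, Pro replicate 3, Sen replicate 1 or Sen replicate 3. KDELR2 and KDELR3 had TE changes of 0.21 ± 0.17 and 0.41 ± 0.19 that did not pass.

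SSR4 and SEC61B, both small proteins of the translocon, moved in opposite directions. SSR4 gave -0.077, 0.68 and 0.66 in Pro and 0.97, 0.75 and 1.27 in Sen (0.49 ± 0.17, edgeR adjusted p = 0.0903), and SEC61B 0.61, 0.94 and 0.90 in Pro and 0.53, -0.19 and -0.042 in Sen (-0.54 ± 0.19, edgeR adjusted p = 0.0914). Neither overlapped. XBP1 gave 1.14, -0.92 and -0.72 in Pro and 0.057, -0.43 and 0.81 in Sen, with the highest TE change of the members (1.003 ± 0.23, edgeR adjusted p = 0.00372) but with Pro 1 above every Sen lysate. Each of these 5 TE calls was lost without Pro replicate 2 and without Sen replicate 3, where no member passed, and KDELR1 alone kept its call under DESeq2. SSR4 lost its TE call under 6 of 14 alternatives, HYOU1 under 5 of 14, and XBP1 and SEC61B under 4 of 14 each. Leaving out both shallow libraries gave 9 calls among the members, 5 higher and 4 lower, and scaling to library totals gave 8, 4 in each direction.

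**Figure D4:**
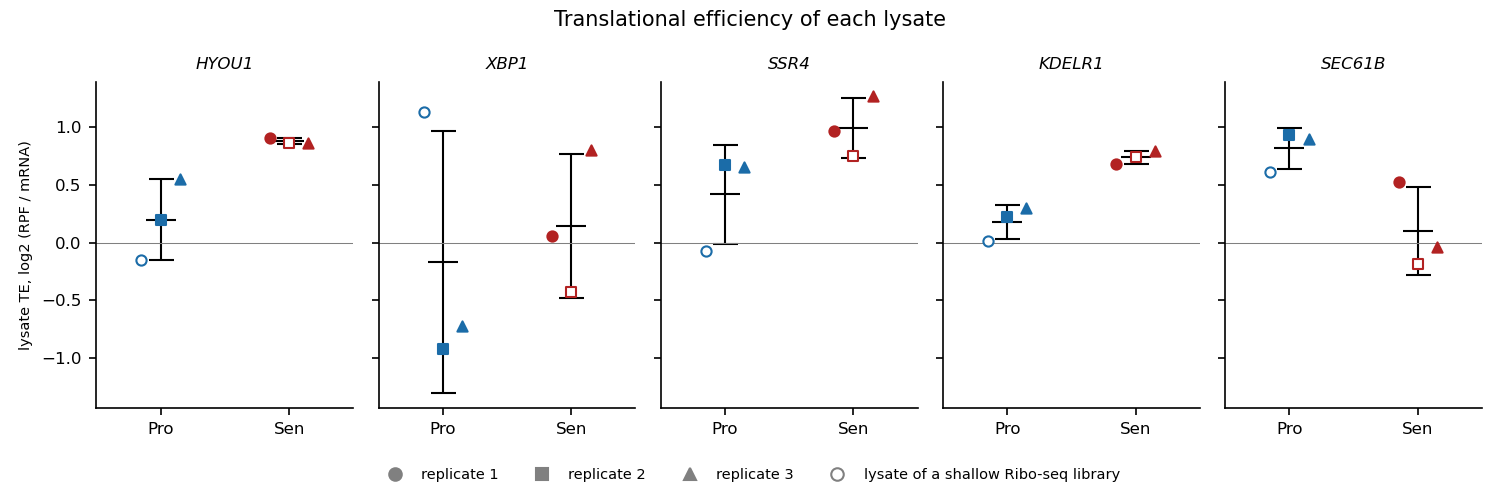
Log2 TE (vertical axis) of each lysate for the 5 members with a called TE change, with mean and SD of 3 lysates; open symbols are lysates of the shallow Ribo-seq libraries. Sen lysates lie above Pro lysates for HYOU1, SSR4 and KDELR1 and below them for SEC61B, narrowly so for SSR4 and SEC61B. For XBP1 the shallow Pro 1 lies above every Sen lysate.

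Per kb of CDS, the members spanned a wide range of footprint levels. CALR, a lectin chaperone that binds calcium, stood highest at 1608 CPM per kb in Pro and 1919 in Sen, followed in Pro by SEC61G at 1112 and HSPA5 at 1084. The sensors ERN1 and EIF2AK3 stood lowest, at 2.60 and 2.90 CPM per kb in Pro. In RPF per kb KDELR1 stood at 419 in Pro, below SEC61B at 602 and SSR2 at 505, and at 874 in Sen, where SEC61B stood at 378 and SSR2 at 471. XBP1 had no reference transcript of the kind used and was left out of this scale. At least 10 RPF reads in every library were found for 20 members, and 4 had none in at least 1 library.

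The promoter sites shown above can be read beside these fold changes. Of the 10 members with ERSE or ERSE-II, 5 were higher in mRNA, 1 was lower and 4 did not pass, with a median of 0.14. Of the 33 other members with a promoter entry, 20 were higher and none lower, with a median of 0.23. Among all genes tested, 36.6% were higher in mRNA and 37% lower. Within the chaperone class, 4 of the 8 genes with a site were higher in mRNA (HSP90B1, CANX, CRELD2 and SDF2L1), with a median of 0.21, and 5 of the 8 without, with a median of 0.47. In RPF the 10 genes with a site gave 5 calls, all higher, and a median of 0.30, beside 0.28 for the 32 others tested. Higher RPF was called for 27.5% of all genes tested. DNAJB9 and ERO1A, the members with the highest mRNA gains, have neither motif in this window.

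The same pathways hold further genes, listed by role, of which 109 were measured. In mRNA 73 were higher, 14 lower and 22 did not pass, with a median of 0.29, and in RPF 53 of 105 tested were higher and 11 lower, with a median of 0.33. For TE, 7 were higher and 3 lower. Over all genes tested, 36.6% were higher and 37% lower in mRNA, and 27.5% higher and 26.9% lower in RPF. Of 36 other folding and quality control genes, 27 were higher in mRNA and 3 lower, with ERLEC1, a lectin of ERAD, at 1.01 ± 0.073 and ERP29, a chaperone of the isomerase family, at -0.62 ± 0.081 the called extremes. Of 16 other UPR signalling genes, 8 were higher and 5 lower, and the range was the widest. ATF3, a stress transcription factor, rose from 15.2 ± 0.354 to 35.3 ± 7.77 CPM (1.23 ± 0.13, edgeR adjusted p = 2.38e-08), and TRIB3, a pseudokinase induced by the PERK branch, fell from 84.1 ± 5.94 to 27.7 ± 0.281 CPM (-1.60 ± 0.082, edgeR adjusted p = 2.14e-13). Both moved the same way in RPF, by 1.35 and -1.29.

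Of 24 other targeting, translocation and glycosylation genes, 17 were higher in mRNA and 3 lower. SEC11C, a catalytic subunit of signal peptidase, was at 0.89 ± 0.11, and SRP9, of the signal recognition particle, at -0.22 ± 0.093, with overlapping libraries for the latter. Of 33 other coat, tether and cargo genes, 21 were higher and 3 lower. MCFD2, the partner of LMAN1 in cargo transport, rose from 288 ± 5.50 to 582 ± 26.6 CPM (1.01 ± 0.070, edgeR adjusted p = 3.27e-11), and COPG2, of the COPI coat, fell from 32.7 ± 0.632 to 27.5 ± 2.12 CPM (-0.24 ± 0.089, edgeR adjusted p = 0.0210). In each of the 4 lists more genes were higher than lower in both layers, as among the 48 members.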

How the data were processed

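Ribo-seq and poly(A) RNA-seq were made from 3 Pro and 3 Sen lysates, and groups and replicate numbers came from the sample labels. The values are expected counts that the authors deposited per gene and region, mostly whole with some fractions of a read and no scaling to depth. The submitters' processing notes name cutadapt 1.18, Bowtie 1.0.1, SAMtools 1.8 and DESeq2 1.22.2. The genome build, annotation, strand rule and handling of multiple placements are not given in the sources used here. The planned tests assumed plain counts, so values were rounded after summing regions.

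The 16451 symbols with a CDS read entered filterByExpr and then the quasi-likelihood fit (edgeR 4.0.16, R 4.3.3), separately for mRNA and RPF, with TMM scaling inside a library type. TE was tested over all 12 libraries as the interaction of library type with state, with the lysate as a block. TE of a lysate is a log2 ratio with 0.5 added to each count. Tests were two-sided, with Benjamini-Hochberg adjustment over all genes tested and a threshold of 0.15. The study's own method, anota2seq, was not run. Scripts were tested on simulated data. The members, the other lists and the tests were chosen with earlier results of these data known.

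Library values are given for the members with the highest and lowest fold change of each class in mRNA and in RPF, for those with a called TE change, for those with opposed fold changes, and for HSPA5, XBP1, SEC61A1 and KDELR3. Of the other lists, the called genes with the highest and lowest mRNA fold change are named. The remaining values named, such as those of ERO1A and KDELR2, and the split by retrieval signal were chosen after values were seen. Alternatives were RLE factors, library totals, other count minimums, DESeq2 1.42.0, a replicate block, other read regions, and leaving out each replicate or both shallow libraries. TE factors on each type's own genes were added after seeing the data. Floors cover counting error only, since PCR copies are not independent molecules.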

Additional observations from a re-analysis of the deposited data

How the results depend on the processing

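Calls in RPF and TE depended far more on the processing than calls in mRNA. In mRNA the calls among all genes (8413 to 10121, against 9413), the members (28 to 33, against 30) and the other pathway genes (79 to 87, against 87) stayed within 1.5 times under every alternative. The RPF calls, 4088 in all, 23 of members and 64 of other pathway genes, became 1164, 5 and 21 under DESeq2 and 610, 8 and 19 with at least 10 counts in every library, where 828 genes, 20 members and 29 other pathway genes were left to test, so fewer genes tested lowers these counts by construction. The split of member calls there was 4 higher and 4 lower, against 22 and 1. Leaving out 1 replicate gave 2681 to 4556 RPF calls in all, 14 (without Pro replicate 3) to 25 of members and 34 to 66 of other pathway genes, and 17 members were higher and 6 lower without Pro replicate 1.

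The TE calls, 751 in all, 5 of members and 10 of other pathway genes, became 76, 1 and 2 under DESeq2, 428, 2 and 4 with at least 1 read, 236, 3 and 9 with at least 10 counts, and 1183, 9 and 19 without the shallow libraries. On library totals they were 880, 8 and 15. Leaving out 1 replicate gave 150 to 1146 TE calls in all, 0 to 9 of members and 0 to 18 of other pathway genes. No member was called without Pro replicate 2 or without Sen replicate 3. Of all TE calls 62.8% were higher, but 52.4% with RLE factors, 44.1% on library totals, 43.7% with at least 1 read, 78.9% under DESeq2, 52.1% with factors on each type's own genes, and 42.2% without Pro replicate 1. For mRNA and RPF, library totals gave 40.4% and 39.1% higher against 49.8% and 50.5%. The summed mRNA of the members, a log2 ratio of 0.24, was 0.13 on library totals. The cause of these moves was not tested.

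Replicate numbers did not pair the samples. The correlation of same-numbered deviations ran from -0.10 to 0.12 in RNA-seq and from 0.010 to 0.028 in Ribo-seq. Between the RNA-seq and Ribo-seq libraries of the same lysate, which the TE test treats as a block, it ran from -0.046 to 0.059. With a replicate block the RPF calls were 2336 in all, 13 of members and 37 of other pathway genes, and mRNA calls of members stayed at 30. TE without the lysate block (no replicate block) gave 1339, 12 and 24 calls.

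Of single values of the named genes in mRNA, RPF and TE, 17, 91 and 31 lost their call under an alternative, 23, 23 and 29 gained one, and 1 called value turned. That was SEL1L in RPF, whose fold change ran from -0.028 (without Sen replicate 1) to 0.49 (without Sen replicate 3) over the replicates left out. RPF calls held under all alternatives tried for SEC61A1, SSR4, KDELR1, KDELR2 and KDELR3, and 24 of the 30 mRNA calls did.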

Other observations

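Footprints in the 5′ UTR enter no comparison above. HSPA5 held the most among the members, with 0, 33 and 96 reads in Pro 1, 2 and 3 and 38, 1 and 6 reads in Sen 1, 2 and 3, which is 2.31 reads per 100 CDS reads in Pro and 1.13 in Sen. SSR2 followed with 1, 18 and 38 reads in Pro and 24, 1 and 2 in Sen, or 7.94 and 4.17 per 100 CDS reads. SEC24D held 0, 9 and 22 reads in Pro and 3, 0 and 1 in Sen, or 4.12 and 0.686 per 100 CDS reads. In each gene the share was lower in Sen when reads were pooled over libraries, a difference that was not tested. SSR3, with 25 such reads in all, went the other way, from 0.801 to 1.396 per 100 CDS reads.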
